A study of Mus musculus with 6 samples.

Results

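The mitochondrial genome of the mouse liver was read out here as the 37 genes that the count table places on the mitochondrial chromosome, of 54532 genes in all. They are 13 mRNA genes, 2 rRNA genes and 22 tRNA genes, all named with the prefix mt-. RNA came from the ischemic liver lobe of C57BL/6 mice whose blood supply had been clamped for 1 h (warm ischemia) and then restored for 12 h (reperfusion). Libraries IRF8-cKO-71, then IRF8-cKO-88, then IRF8-cKO-106 came from mice whose hepatocytes lack IRF8 (interferon regulatory factor 8, a transcription factor best known from immune cells), and libraries WT-14, then WT-44, then WT-77 from wild-type mice; values per library follow this order within each group. The labels name neither the Cre driver nor the floxed allele, nor the age or sex of the animals, and uninjured liver was not analysed here, so both groups carry the injury. They do not say that the numbered libraries are separate animals, so p-values measure only the spread between these libraries.

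As background, the mitochondrial genome is a small circle that encodes a few subunits of the respiratory chain and of ATP synthase, with the rRNAs and tRNAs needed to translate them inside the organelle. Both strands are transcribed by the nuclear-encoded polymerase Polrmt into long precursors, and the tRNAs that lie between the other genes are cut out to free the mRNAs and rRNAs. All other proteins of mitochondria, including those that copy, transcribe and process this genome, come from nuclear genes. Hepatocytes are rich in mitochondria, and their mitochondrial transcripts are among the most abundant RNAs of liver.

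Reads of the 37 genes made up 5.99%, 7.14% and 6.01% of the library total in the IRF8-cKO libraries, against 7.19%, 20.2% and 14.5% in the WT libraries. The IRF8-cKO libraries lay close together, while WT-44 and WT-77 stood well above WT-14, which exceeded the highest IRF8-cKO library by a factor of only 1.01. The means were 6.38% ± 0.659 in IRF8-cKO and 13.97% ± 6.54 in WT (SD, n = 3 each), a log2 ratio of -1.01. The groups did not overlap, and the exact two-sided permutation test gave p = 0.1, the smallest that 3 against 3 libraries allow. The 95% Wilson intervals were narrow at this depth, for example 7.13% to 7.15% in IRF8-cKO-88 and 7.18% to 7.20% in WT-14, and they cover counting error only. In bulk tissue, fewer cells with many mitochondria and less mitochondrial RNA per cell cannot be told apart.

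Nearly all of these reads belonged to the mRNA genes, which took 5.87%, 7.02% and 5.76% of the library total in the IRF8-cKO libraries and 6.99%, 19.8% and 14.1% in the WT libraries. WT-14 lay just below IRF8-cKO-88 here, so the groups overlapped, with an exact permutation p of 0.2. The rRNA genes took 0.0955%, 0.103% and 0.231% in the IRF8-cKO libraries, against 0.175%, 0.358% and 0.340% in the WT libraries. IRF8-cKO-106 stood apart from its group in the rRNAs and exceeded WT-14 (log2 ratio -1.08, exact permutation p = 0.2). The tRNA genes took 0.0191% to 0.0245% in the IRF8-cKO libraries and 0.0240% to 0.0607% in the WT libraries (log2 ratio -0.94, exact permutation p = 0.2).

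**Figure D1:**
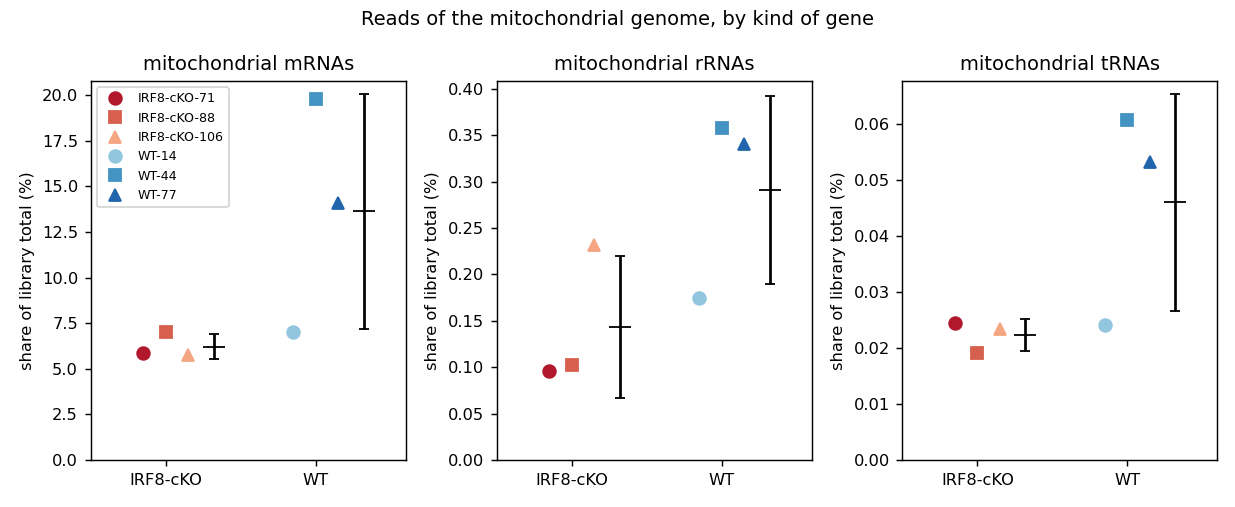
Share of the library total (%) taken by the mRNA, rRNA and tRNA genes of the mitochondrial genome, 1 point per library, with the group mean and SD (n = 3 each) as a black bar. The IRF8-cKO libraries sit at 5.76% to 7.02% for the mRNAs, while WT-14 lies at 6.99% and WT-44 and WT-77 at 19.8% and 14.1%.

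For tests gene by gene, TMM scaling in edgeR was followed by a fit across all 13134 genes that passed the filter on low counts, with p-values adjusted over all of them (Benjamini-Hochberg, threshold 0.05). Of the 37 genes, 29 passed the filter: all 13 mRNA genes, both rRNA genes and 14 of 22 tRNA genes. All 29 had a negative log2 fold change of IRF8-cKO over WT, from -5.06 to -0.49 with a median of -1.76, while the median over all tested genes was 0.03. Past the threshold were 2 of the 29, mt-Atp8 and mt-Nd3, both lower in IRF8-cKO, and none was higher; mt-Atp8 passed the filter only through the WT libraries. Over all tested genes, 0.937% were called lower and 0.449% higher. An unadjusted p under 0.05 was reached by 21 of the 29, including 13 of 13 mRNA genes, and by 24.1% of all tested genes. On the scaled values the groups did not overlap, with IRF8-cKO lower, for 12 of the 29, as for 14.5% of all tested genes.

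Among the WT libraries, WT-14 was the closest to IRF8-cKO. In RPM, the reads of a gene per 1000000 reads of the library total without TMM scaling, it was the lowest WT library for 27 of the 29 tested genes and for 13 of 13 mRNA genes. It lay above every IRF8-cKO library for 14 of the 29. The calls depended on single libraries in both groups. The count of 2 became 0 without any 1 of IRF8-cKO-71, IRF8-cKO-106, WT-44 or WT-77. It became 8 of 30 tested without IRF8-cKO-88 and 11 of 30 without WT-14. The number of all tested genes called lower, 123 in the main fit, moved as well. Leaving out WT-44 or WT-77 brought it to 0, and leaving out IRF8-cKO-106 to 7. It was 107 with WT-14 left out and 100 with IRF8-cKO-71 left out. With IRF8-cKO-88 left out it rose to 630, of 13652 tested genes. Every tested mitochondrial gene kept a negative log2 fold change in each of these fits. The median over the mitochondrial genes was -2.19 without WT-14 and -1.02 without WT-44.

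**Figure D2:**
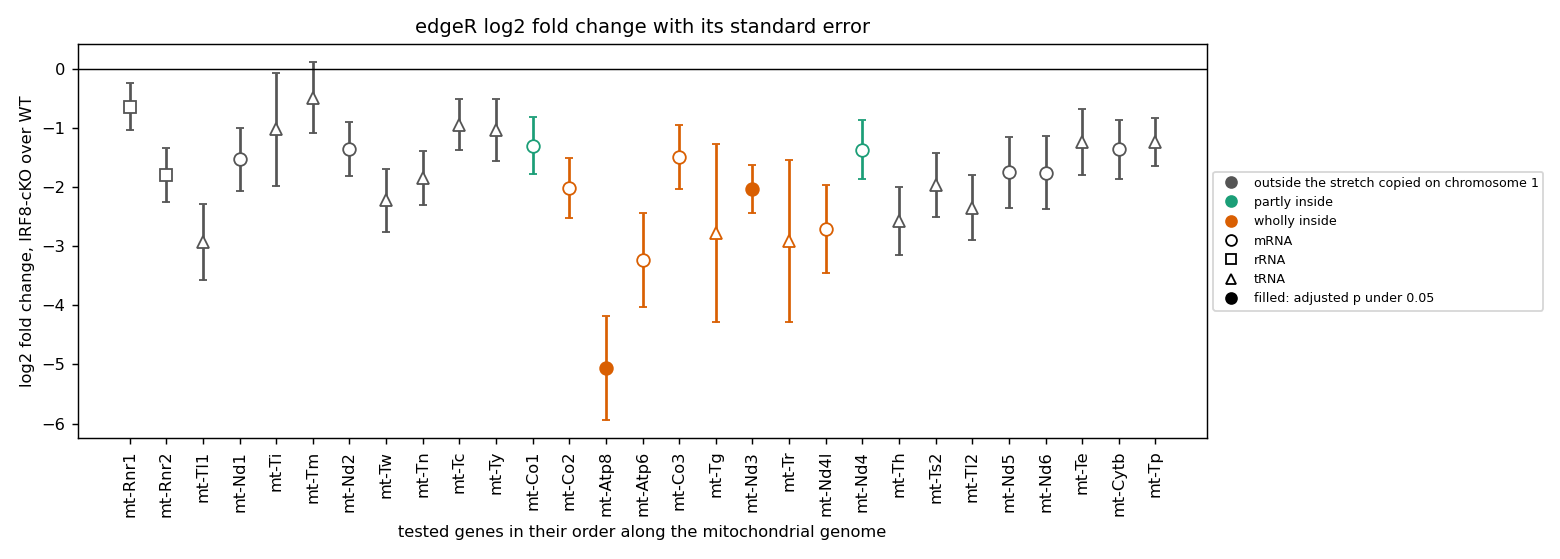
Log2 fold change of IRF8-cKO over WT with its standard error for the 29 tested genes, from left to right in genome order, with symbols for the kind of gene and colours for the position relative to the stretch copied on chromosome 1. All points lie below 0, and the filled points, mt-Atp8 at -5.06 and mt-Nd3 at -2.04, are those with an adjusted p under 0.05.

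Complex V, the ATP synthase, has its membrane subunits ATP8 and ATP6 encoded by mt-Atp8 and mt-Atp6, neighbouring genes that share bases on a single transcript. The genes are shown because reads on the shared bases, in capitals, cannot be assigned to either, and because the annotated chromosome 1 copy of mt-Atp6, Gm10925, holds the same bases. In the GENCODE M21 annotation of mm10, mt-Atp8 (ENSMUSG00000064356) is chrM:7766-7969 on the plus strand and shares 43 bases with mt-Atp6 (ENSMUSG00000064357, chrM:7927-8607). The copy Gm10925 starts at the upper end of chr1:24614592-24614651, on the minus strand. The sequences are:
mt-Atp8: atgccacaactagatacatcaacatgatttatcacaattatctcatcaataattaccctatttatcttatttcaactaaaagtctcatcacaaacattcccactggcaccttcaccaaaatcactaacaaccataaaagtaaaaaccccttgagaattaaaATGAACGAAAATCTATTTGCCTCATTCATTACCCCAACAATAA
mt-Atp6, first 60 bases: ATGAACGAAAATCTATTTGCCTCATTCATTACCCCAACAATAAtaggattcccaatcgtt
Gm10925 on chromosome 1, first 60 bases: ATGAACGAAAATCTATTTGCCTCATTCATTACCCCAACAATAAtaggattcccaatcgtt
How reads on shared bases were treated is not given in the sources used here.

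mt-Atp8 had 0.417, 0.0610 and 0.426 RPM in the IRF8-cKO libraries, which is 7, 1 and 7 reads, against 2.10, 7.18 and 16.2 RPM in the WT libraries, where the lowest and highest counts were 32 and 259 reads. Every WT library was above every IRF8-cKO library, and the IRF8-cKO counts were all under the filter's minimum of 10. mt-Atp8 thus entered the test only through the WT libraries, a filter that favours this direction. Reads counted to mt-Atp8 were lower in IRF8-cKO, with a log2 fold change of -5.06 (SE 0.88, edgeR adjusted p = 0.0410). The gene lies inside the stretch copied on chromosome 1, described further on, where few reads per length were counted in every library. The call was lost with limma-voom (adjusted p = 0.0817) and without IRF8-cKO-71, IRF8-cKO-106, WT-44 or WT-77 (adjusted p = 0.0610 to 0.172), and without WT-77 the log2 fold change was -4.30.

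mt-Atp6 had 137, 128 and 112 RPM in the IRF8-cKO libraries, against 168, 1726 and 936 in the WT libraries. The groups did not overlap, and the WT libraries differed among themselves by more than WT-14 differed from IRF8-cKO. The log2 fold change of -3.23 (SE 0.80) missed the threshold (edgeR adjusted p = 0.0767).

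Complex IV, cytochrome c oxidase, which passes electrons to oxygen, has its catalytic core encoded by mt-Co1, mt-Co2 and mt-Co3. mt-Co1 was the gene with the most reads of the 37, with 24931, 26853 and 24358 RPM in the IRF8-cKO libraries, against 29734, 73315 and 51913 in the WT libraries. The groups did not overlap, and the log2 fold change of -1.30 (SE 0.48) did not pass the threshold (edgeR adjusted p = 0.145). mt-Co2 had 139, 159 and 139 RPM in IRF8-cKO, against 201, 724 and 516 in WT, also without overlap (log2 fold change -2.01, edgeR adjusted p = 0.0720). mt-Co3 had 129, 111 and 112 in IRF8-cKO, against 119, 468 and 213 in WT, where WT-14 lay among the IRF8-cKO libraries (log2 fold change -1.49, edgeR adjusted p = 0.142).

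Complex III, which hands electrons from ubiquinol to cytochrome c, has cytochrome b as its only subunit from this genome. mt-Cytb had 11973, 15274 and 11563 RPM in the IRF8-cKO libraries, against 14895, 39736 and 27968 in the WT libraries. WT-14 lay below IRF8-cKO-88, so the groups overlapped, and the log2 fold change was -1.36 (SE 0.50, edgeR adjusted p = 0.141).

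Complex I, NADH dehydrogenase, where electrons enter the chain, takes its proton-pumping membrane subunits from the 7 mt-Nd genes. mt-Nd1 had 5701, 7953 and 5205 RPM in the IRF8-cKO libraries, against 6837, 22127 and 16270 in the WT libraries. mt-Nd2 had 5974, 6498 and 6142 in IRF8-cKO, against 6921, 16673 and 15926 in WT. mt-Nd4 had 4520, 5040 and 4294 in IRF8-cKO, against 4904, 14365 and 10112 in WT. In all of these WT-44 was highest, and WT-14 lay nearer to the IRF8-cKO libraries than to WT-77.

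mt-Nd5 had 4031, 6201 and 4430 RPM in IRF8-cKO, against 4644, 22198 and 13061 in WT. mt-Nd6, the only mRNA gene annotated on the minus strand, had 1155, 1955 and 1157 in IRF8-cKO, against 1420, 6587 and 3768 in WT. It shares 14 bases with mt-Nd5 on the other strand, and without a known strand setting, reads of mt-Nd6 and antisense reads of the opposite strand cannot be told apart. Both had IRF8-cKO-88 above WT-14. The log2 fold changes of mt-Nd1, mt-Nd2, mt-Nd4, mt-Nd5 and mt-Nd6 ran from -1.76 to -1.36, none past the threshold (edgeR adjusted p = 0.127 to 0.139).

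The short complex I genes mt-Nd4l and mt-Nd3 had far fewer reads. mt-Nd4l had 14.2, 18.1 and 16.6 RPM in the IRF8-cKO libraries, against 16.5, 152 and 83.95 in the WT libraries, with WT-14 among the IRF8-cKO libraries (log2 fold change -2.71, SE 0.74, edgeR adjusted p = 0.0899). mt-Nd3 had 11.2, 9.34 and 29.7 RPM in IRF8-cKO, against 38.9, 48.3 and 76.8 in WT. The groups did not overlap, although IRF8-cKO-106 lay nearer to WT-14 than to the other IRF8-cKO libraries. mt-Nd3 (ENSMUSG00000064360, chrM:9459-9806) fell in IRF8-cKO, with a log2 fold change of -2.04 (SE 0.41, edgeR adjusted p = 0.0482), but it has a near-identical nuclear copy, described further on. The call was lost with library totals as the only scaling (adjusted p = 0.0835), limma-voom (adjusted p = 0.0522) and no robust shrinkage (adjusted p = 0.0503). It was also lost without IRF8-cKO-71, IRF8-cKO-106, WT-44 or WT-77 (edgeR adjusted p = 0.0638 to 0.201).

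Within the mRNA reads of this genome, which do not depend on the scaling between libraries, most genes kept similar shares. mt-Co1 took 41.0% ± 2.39 in IRF8-cKO and 38.8% ± 3.24 in WT, mt-Cytb took 20.7% ± 0.889 in IRF8-cKO and 20.4% ± 0.788 in WT, and mt-Nd1 took 10.03% ± 1.18 in IRF8-cKO and 10.8% ± 0.931 in WT (SD, n = 3 each). The groups overlapped for 10 of the 13 genes. Among the other 3, mt-Co2 took 0.235% ± 0.00744 in IRF8-cKO and 0.340% ± 0.0454 in WT, and mt-Atp6 took 0.203% ± 0.0264 in IRF8-cKO and 0.592% ± 0.322 in WT. mt-Atp8 took 0.000709%, 8.69e-05% and 0.000741% in the IRF8-cKO libraries, against 0.00300%, 0.00363% and 0.0115% in the WT libraries. For mt-Atp6, WT-14 (0.240%) lay next to IRF8-cKO-71 (0.233%). These 3 genes lie inside the stretch copied on chromosome 1, as do mt-Co3, mt-Nd3 and mt-Nd4l, whose shares overlapped between groups.

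**Figure D3:**
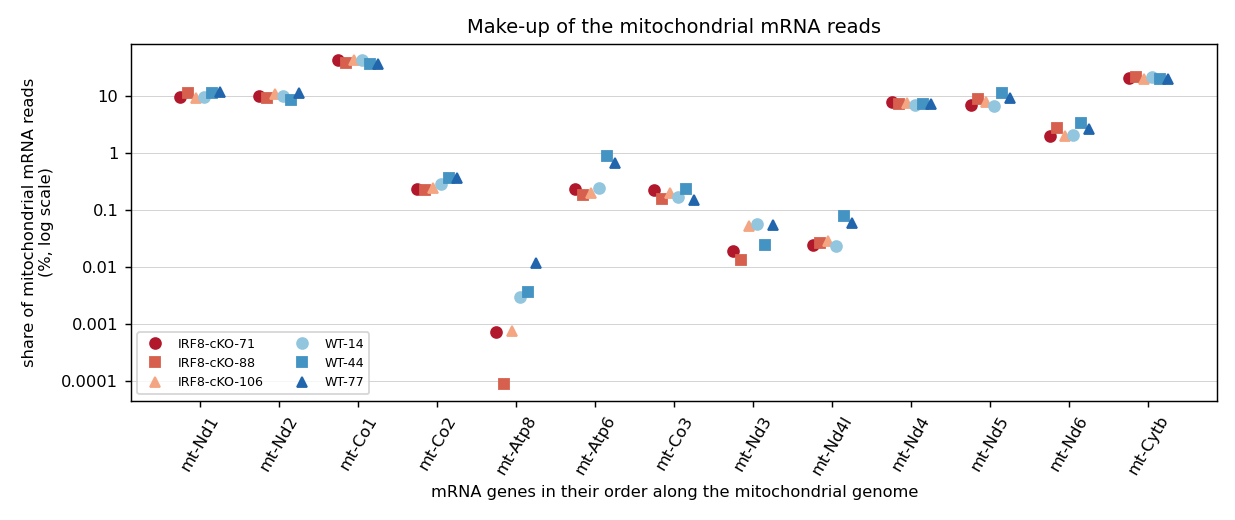
Share of the mitochondrial mRNA reads (%, log scale) taken by each mRNA gene, 1 point per library, IRF8-cKO libraries left of WT libraries within each gene. mt-Co1, mt-Cytb and mt-Nd4 sit at nearly the same height in all 6 libraries, whereas mt-Atp8 is at 0.000741% or less in the IRF8-cKO libraries and at 0.00300% or more in the WT libraries.

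Chromosome 1 carries a nuclear copy of part of the mitochondrial genome, annotated as 7 pseudogenes at chr1:24611535-24616197 on the minus strand. Aligned base by base with the GENCODE M21 transcript sequences, they correspond to bases 6381 to 11042 of the mitochondrial genome, 4662 bases. The stretch runs from the last 492 bases of mt-Co1 (Gm29216, 6 mismatches) through mt-Co2 (Gm28661), mt-Atp6 (Gm10925), mt-Co3 (Gm28437), mt-Nd3 (Gm28438) and mt-Nd4l (Gm10222) to the first 876 bases of mt-Nd4 (Gm28439). The last of these and the copies of mt-Co2, mt-Atp6, mt-Co3 and mt-Nd4l had 0 mismatches. mt-Atp8 lies inside the stretch without an annotated copy of its own, and the chromosome 1 sequence that would match it was not read here. How reads that match both places were counted is not given in the sources used here.

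Levels per length dropped sharply inside this stretch in every library. The 5 mRNA genes wholly outside it had 2210 to 13351 RPM per kb in the IRF8-cKO libraries (median 5756) and 2546 to 34735 in the WT libraries (median 12691). The 6 wholly inside it had 0.299 to 233 in the IRF8-cKO libraries (median 113) and 10.3 to 2534 in the WT libraries (median 259). Adding the reads of each copy to its gene gave 97.2 to 392 per kb in IRF8-cKO and 89.7 to 3423 in WT for the 5 inside genes that have one, which left each of them below the outside genes of the same library. mt-Co1 and mt-Nd4, partly inside, had per kb levels of 16428 ± 846 and 3351 ± 278 in IRF8-cKO, and of 33433 ± 14105 and 7107 ± 3439 in WT (SD, n = 3 each).

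**Figure D4:**
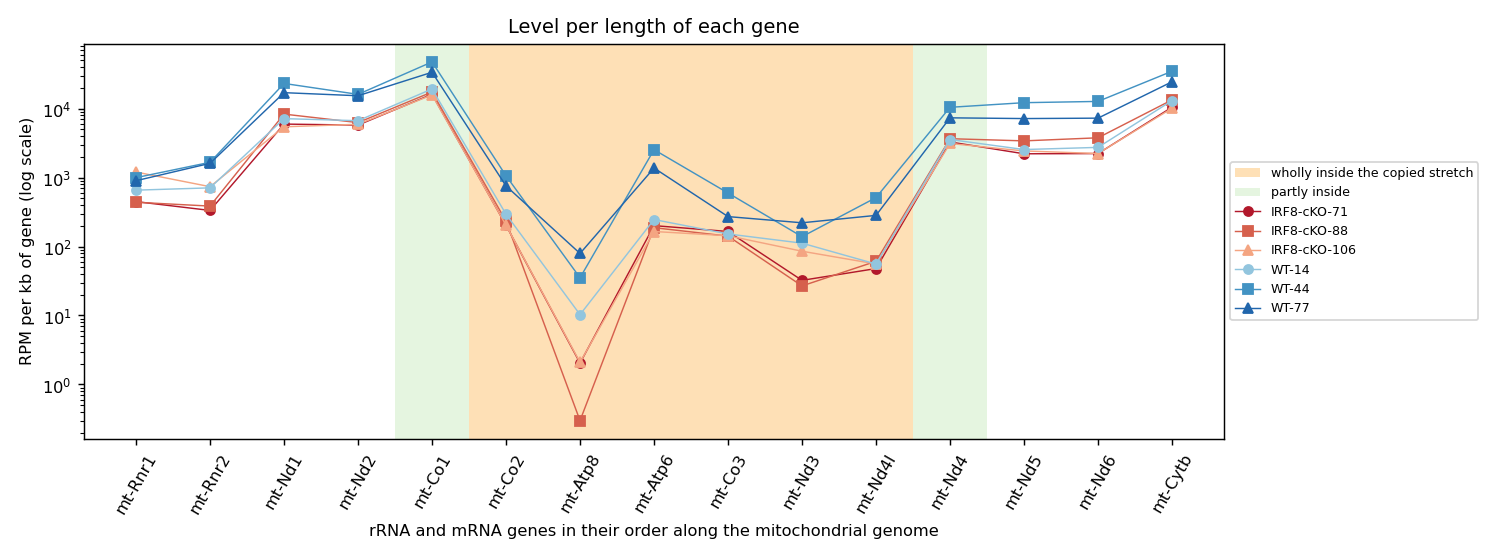
RPM per kb of gene (log scale) for the 2 rRNA and 13 mRNA genes in genome order, 1 line per library, with genes wholly or partly inside the stretch copied on chromosome 1 shaded. All 6 lines drop from mt-Co1 to mt-Co2, reach their lowest point at mt-Atp8 (0.299 to 79.3) and return at mt-Nd4.

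The copies themselves took 0.0415%, 0.0474% and 0.0400% of the library total in the IRF8-cKO libraries, against 0.0498%, 0.206% and 0.113% in the WT libraries (log2 ratio -1.29, exact permutation p = 0.1, the smallest possible). The order of the libraries resembled that of the mitochondrial genes, with WT-44 highest. Their log2 fold changes ran from -2.40 to -1.21, and none of the 7 passed the threshold (edgeR adjusted p = 0.0767 to 0.442). In edgeR, 5 of the 7 had an unadjusted p under 0.05, against 24.1% of all tested genes. DESeq2 called 4 of the 7 lower, against 6.17% of all tested genes. For mt-Co2, mt-Atp6, mt-Co3 and mt-Nd4l, the copy held 39.5% to 50.7% of the reads of gene plus copy in the IRF8-cKO libraries and 25.1% to 42.9% in the WT libraries.

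mt-Nd3 and its copy Gm28438 divided their reads otherwise. They differ at 1 of 345 aligned bases, T3C, counted from 1 at the 5′ end of mt-Nd3 with the mitochondrial base first, which is base 9461 of the mitochondrial genome. The start of both genes, chrM:9459-9486 on the plus strand and chr1:24613092-24613119 on the minus strand of mm10, is shown with the differing base in capitals:
mt-Nd3: atTaacctgtacactgttatcttcatta
Gm28438: atCaacctgtacactgttatcttcatta
Gm28438 held 72.0%, 78.8% and 20.7% of the summed reads in the IRF8-cKO libraries, against 20.5%, 71.3% and 16.9% in the WT libraries. IRF8-cKO-106 thus lay with WT-14 and WT-77, and WT-44 with IRF8-cKO-71 and IRF8-cKO-88, a split that did not follow the genotype. The sum of mt-Nd3 and Gm28438 was 40.2, 44.001 and 37.5 RPM in the IRF8-cKO libraries, against 49.0, 168 and 92.5 in the WT libraries. With the copy's reads added before the fit, an alternative chosen after the data were seen, mt-Nd3 had a log2 fold change of -1.64 and was no longer called (edgeR adjusted p = 0.101).

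The tRNA genes on either side of mt-Nd3 divided the libraries in the same way. mt-Tg, the tRNA for glycine, had 0, 0 and 21 reads in the IRF8-cKO libraries, against 37, 0 and 75 in the WT libraries. mt-Tr, the tRNA for arginine, had 0, 3 and 14 in the IRF8-cKO libraries, against 24, 0 and 79 in the WT libraries. A count of 0 allows up to 0.179 RPM in IRF8-cKO-71 and 0.203 in WT-44, from a floor of 3 counts per library. In the interval that holds mt-Tr, the copy is longer than the mitochondrial genome by 1 base, from the distances between the annotated genes. Neither tRNA passed the threshold between genotypes (log2 fold changes -2.78 and -2.91, edgeR adjusted p = 0.287 and 0.229). The pattern was noticed after the values were seen, and which bases the libraries carry at these places was not analysed here.

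**Figure D5:**
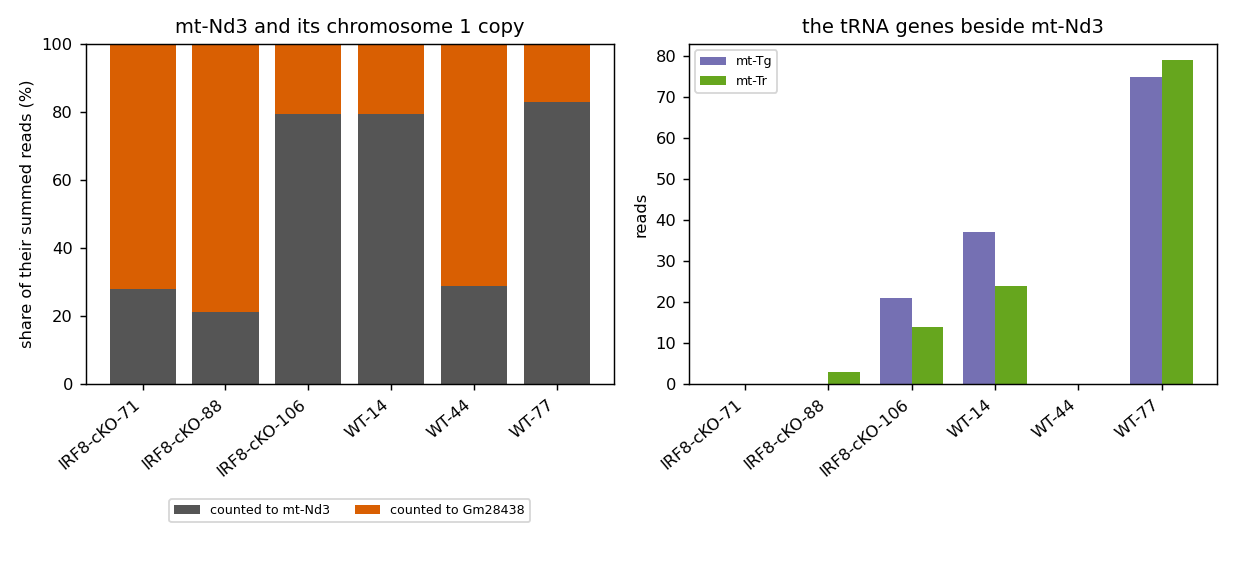
Left, share (%) of the summed reads of mt-Nd3 and its chromosome 1 copy Gm28438 that was counted to each, by library. Right, reads of the neighbouring tRNA genes mt-Tg and mt-Tr. The copy holds 71.3% to 78.8% in IRF8-cKO-88, IRF8-cKO-71 and WT-44, where mt-Tg has 0 reads, and 16.9% to 20.7% in IRF8-cKO-106, WT-14 and WT-77.

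The rRNA genes, whose products form the cores of the mitochondrial ribosome, lie outside the copied stretch. mt-Rnr1, the small-subunit rRNA, had 428, 418 and 1148 RPM in the IRF8-cKO libraries, against 627, 951 and 859 in the WT libraries. The highest RPM was thus in IRF8-cKO-106, whereas its TMM-scaled value of 872 lay below those of WT-44 (1210) and WT-77 (912). The log2 fold change, from the scaled values, was -0.64 (SE 0.40, edgeR adjusted p = 0.344). mt-Rnr2, the large-subunit rRNA, had 528, 610 and 1166 RPM in IRF8-cKO, against 1121, 2630 and 2541 in WT (log2 fold change -1.79, SE 0.45, edgeR adjusted p = 0.0718). For mt-Rnr2 the groups overlapped in RPM but not in scaled values, where IRF8-cKO-106 was at 885 and WT-14 at 1045. mt-Rnr1 made up 44.8%, 40.7% and 49.6% of the rRNA reads in the IRF8-cKO libraries, against 35.9%, 26.6% and 25.3% in the WT libraries. The groups did not overlap (exact permutation p = 0.1, the smallest possible), and this test was not planned. IRF8-cKO-106 was also the library with the highest TMM factor, 1.32, against 0.786 to 1.07 in the other libraries; the part of this in the rRNA values was not tested.

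Reads counted to a tRNA gene can come from the tRNA or from any longer transcript that covers it, which these counts do not separate. The tRNA genes with the most reads were mt-Tp (proline, 17095 reads over the 6 libraries), mt-Tc (cysteine, 4693), mt-Te (glutamate, 4598) and mt-Tn (asparagine, 1343), all on the minus strand. The 8 tRNA genes of the minus strand held 28832 reads, of which 17095 were those of mt-Tp, and the 14 of the plus strand 3395. Without a known strand setting, reads of a tRNA gene's own strand and antisense reads of the opposite strand cannot be told apart. The minus-strand genes took 95.9%, 92.6% and 92.7% of tRNA reads in the IRF8-cKO libraries, against 89.98%, 88.6% and 84.5% in the WT libraries. The groups did not overlap in this share (exact permutation p = 0.1, the smallest possible), a test that was not planned.

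mt-Tp had 146, 107 and 111 RPM in the IRF8-cKO libraries, against 146, 307 and 269 in the WT libraries, where WT-14 lay just below IRF8-cKO-71 (log2 fold change -1.24, edgeR adjusted p = 0.118). Of the 14 tested tRNA genes, none passed the threshold by edgeR or limma-voom, and the log2 fold changes ran from -2.93 to -0.49 with a median of -1.91. In edgeR, 7 of the 14 had an unadjusted p under 0.05, against 24.1% of all tested genes. DESeq2 called 7 lower, against 6.17% of all tested genes. The lowest p-values belonged to plus-strand genes. mt-Th, for histidine, had 14, 5 and 16 reads in IRF8-cKO, against 33, 49 and 80 in WT (log2 fold change -2.57, SE 0.58, edgeR adjusted p = 0.0554). mt-Tl1, for leucine, which directly follows mt-Rnr2, had 29, 70 and 70 in IRF8-cKO, against 93, 404 and 464 in WT (log2 fold change -2.93, SE 0.65, edgeR adjusted p = 0.0593).

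In both of these every WT library exceeded every IRF8-cKO library, as it did for the next pair. mt-Tl2, the other leucine tRNA, had 44, 63 and 45 reads in IRF8-cKO, against 75, 243 and 284 in WT (log2 fold change -2.35, SE 0.55, edgeR adjusted p = 0.0616). mt-Tw, for tryptophan, had 30, 37 and 43 in IRF8-cKO, against 52, 167 and 168 in WT (log2 fold change -2.22, SE 0.53, edgeR adjusted p = 0.0627). The smallest differences were those of mt-Tm, for methionine, at -0.49 and mt-Tc at -0.95, beside mt-Ti (isoleucine) at -1.03, mt-Ty (tyrosine) at -1.04 and mt-Te at -1.24. mt-Tn was at -1.85 and mt-Ts2 (serine) at -1.97, both without overlap between groups. The 8 tRNA genes that did not pass the filter had 0 to 81 reads over the 6 libraries, and mt-Tf, mt-Td and mt-Ts1 had none. Among them, mt-Ta (alanine) had 3, 1 and 1 reads in the IRF8-cKO libraries, against 9, 27 and 40 in the WT libraries.

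Nuclear genes that serve this genome were taken in lists for transcription and replication, RNA processing, tRNA modification, translation and assembly, and mass and import. By edgeR, 0 of their 138 tested members passed the threshold in either direction, near the 0.937% lower and 0.449% higher of all tested genes, and limma-voom also called 0. An unadjusted p under 0.05 was reached by 36 of the 138 (26.1%), against 24.1% of all tested genes. DESeq2 called 14 higher and 4 lower, where it called 613 (4.67%) higher and 810 (6.17%) lower of all tested genes. The lists were compiled from general knowledge with earlier results of these data known. In the transcription list, 17 of 27 tested members had positive log2 fold changes, with a median of 0.14. Polrmt, the polymerase, averaged 20.2 ± 4.69 scaled CPM in IRF8-cKO and 13.0 ± 0.980 in WT (SD, n = 3 each), a log2 fold change of 0.64 (edgeR adjusted p = 0.203). Tfam, which packages the genome and starts its transcription, had a log2 fold change of 0.09 (edgeR adjusted p = 0.855). Ppargc1a, a coactivator of mitochondrial biogenesis, was at -1.47 (edgeR adjusted p = 0.220), with scaled CPM of 2.55 ± 0.188 in IRF8-cKO and 7.07 ± 6.94 in WT. Tfb1m, which methylates the small mitochondrial rRNA, had the lowest p of the list, with 10.2 ± 3.14 scaled CPM in IRF8-cKO and 2.72 ± 0.877 in WT (log2 fold change 1.90, edgeR adjusted p = 0.0532).

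In the RNA processing and decay list, 31 of 36 tested members had positive log2 fold changes (median 0.48), as did 27 of 31 in the translation and assembly list (median 0.48), against a median of 0.03 over all tested genes. Lrpprc, which stabilises mitochondrial mRNAs, was at 0.18 (edgeR adjusted p = 0.712), and Ptcd2, an RNA-binding protein needed for cytochrome b mRNA in mice, at 1.09 (edgeR adjusted p = 0.0910). Taco1, a translational activator of the mt-Co1 mRNA, was at 1.97 (edgeR adjusted p = 0.0667). The tRNA modification list had a median of 0.21, and its lowest p was that of Qtrt1, the catalytic subunit of the enzyme that inserts queuine, at -1.18 (edgeR adjusted p = 0.0953). The mass and import list had a median of 0.19, and its lowest p was that of Mfn2, an outer membrane fusion protein, at 1.09 (edgeR adjusted p = 0.0856). With scaling by library totals alone, the median of all tested genes moved to 0.25, and the list medians moved up with it.

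The nuclear subunits of the same complexes were also without calls, by edgeR, DESeq2 and limma-voom. An unadjusted p under 0.05 in edgeR was reached by 3 of 5 in complex IV and 0 in complexes I, III and V, against 24.1% of all tested genes. The median log2 fold change was -0.08 for 7 subunits of complex I, -0.08 for 4 of complex III, -0.75 for 5 of complex IV and -0.03 for 4 of complex V. In complex IV all 5 were negative, from -0.88 to -0.09, led by Cox6c, a small subunit with 165, 165 and 141 RPM in the IRF8-cKO libraries, against 248, 299.8 and 196 in the WT libraries (edgeR adjusted p = 0.156). The members with the lowest p in the other complexes were Ndufs1, the iron-sulfur core subunit of complex I, at 0.53 (edgeR adjusted p = 0.227), Uqcrfs1, the Rieske protein of complex III, at -0.22 (edgeR adjusted p = 0.674), and Atp5o, a stalk subunit of complex V, at -0.45 (edgeR adjusted p = 0.403).

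Library totals ran from 16385964 to 16805830 counts in IRF8-cKO and from 14758237 to 16010064 in WT, and the biological coefficient of variation was 37.1%. Irf8 itself had 92, 109 and 90 reads in the IRF8-cKO libraries, against 152, 110 and 155 in the WT libraries (log2 fold change -0.81, edgeR adjusted p = 0.174), in whole tissue where cells other than hepatocytes also carry it. Hepatocyte markers defined the tissue, with 12 of 12 detected. Their summed level was 98333 to 110293 RPM in IRF8-cKO, against 115966 to 122725 in WT. On TMM-scaled values the sums overlapped, with 111326 in IRF8-cKO-88 and 108133 in WT-14. Of the 12, 3 had positive and 9 negative log2 fold changes, and 0 were called by edgeR (4 at an unadjusted p under 0.05, and 2 called lower by DESeq2). Summed neutrophil markers were at 30.9 to 52.7 RPM in IRF8-cKO and 161 to 212 in WT (12 of 12 detected, 5 of 8 tested called lower, of which Ltf and Ngp passed the filter only through the WT libraries), and erythroid markers at 115 to 149 in IRF8-cKO and 231 to 249.7 in WT (6 of 6 detected, 1 of 5 tested called lower). Of the untested neutrophil markers, Mpo (2 reads in all) and Elane (15) had most reads in IRF8-cKO, and Ly6g (20) and Camp (45) in WT. Kupffer cell markers were at 93.6 to 194 in IRF8-cKO and 44.7 to 65.0 in WT, and cholangiocyte markers at 124 to 285 in IRF8-cKO and 357 to 1001 in WT. In each of these lists edgeR called 0 and 5 members had an unadjusted p under 0.05, while DESeq2 called 3 Kupffer cell markers higher and 3 cholangiocyte markers lower. Endothelial markers were at 65.7 to 107 in IRF8-cKO and 53.7 to 110.3 in WT. Their log2 fold changes ran from -1.21 to 1.63, 3 positive and 2 negative. In edgeR 2 of 5 had an unadjusted p under 0.05 and 0 were called, while DESeq2 called 1 lower. No marker of these lists was at 0 reads. Over all tested genes, 24.1% had an unadjusted p under 0.05 in edgeR. Of all tested genes, edgeR called 0.937% lower and 0.449% higher, and DESeq2 called 6.17% lower and 4.67% higher. A list of RNAs without poly(A) tails or kept in the nucleus, and of loci with rRNA-like sequence such as the mRNA gene Lars2, had 4 of 10 at 0 reads. The median log2 fold change of its 5 tested members was -0.57, with 1 positive, at 0.69. The lowest p was that of Rn7sk, at -2.25 (edgeR adjusted p = 0.0834). Rn7sk had 0.298, 0.671 and 0.305 RPM in the IRF8-cKO libraries, against 1.25, 1.90 and 2.12 in the WT libraries. It passed the filter only through the WT libraries, a filter that favours this direction. The part of these levels in the mitochondrial values was not tested.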

How the data were processed

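The authors deposited raw counts per gene, whole numbers without normalisation. Per the submitters' processing notes, HISAT2 2.0.5, featureCounts 1.5.0-p3 and mm10 were used; per the labels' protocols, total RNA went into NEBNext Ultra libraries. The sources used here do not give RNA selection, strand setting or the handling of multiply mapped reads. All 37 mitochondrial genes and 7 copies have the same coordinates in GENCODE M21, which supplied the sequences.

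IRF8-cKO was tested against WT by edgeR 4.0.16 under R 4.3.3 (TMM, filterByExpr with minimum count 10 and minimum total 15, robust quasi-likelihood fit, group only, two-sided), adjusted over 13134 genes. RPM are reads per 1000000 of the unscaled library total; scaled CPM use TMM. Shares were tested by exact permutation (SciPy 1.17.1). The fit was tested on counts simulated from its own means and dispersions, which cannot show how calls depend on single libraries. DESeq2 1.42.0 and limma-voom (limma 3.58.1) were alternatives.

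Members, lists and tests were chosen with earlier results of these data known. Named were every mRNA and rRNA gene, every tested tRNA gene and, of each nuclear list, the member with the lowest p, with Irf8, Polrmt, Tfam, Ppargc1a and Lrpprc. mt-Ta, Cox6c values and the mt-Tg and mt-Tr pattern were described after their values were seen. The permutation tests of the copies' share, the mt-Rnr1 share and the minus-strand share were not planned. Other shares within the mitochondrial reads were tested likewise. Those of mRNAs, rRNAs, tRNAs, mt-Tp and complexes I, III and IV overlapped between groups, and that of complex V did not (exact permutation p = 0.1). Both complex V genes, mt-Atp8 and mt-Atp6, lie inside the stretch copied on chromosome 1. In the complex V share, WT-14 exceeded the highest IRF8-cKO library by a factor of only 1.04.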

Additional observations from a re-analysis of the deposited data

How the results depend on the processing

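Every mitochondrial gene tested had a negative log2 fold change in every alternative run, with 28 to 34 tested per run. The count of 2 called lower, of 29 tested, became 24 of 34 with no low-count filter and 21 of 29 with DESeq2. It became 1 with library totals as the only scaling and 1 with no robust shrinkage. Adding the reads of the nuclear copies, chosen after the data were seen, also gave 1. That gene was mt-Atp8, which has no annotated copy, so adding copies could not change its reads. The count was 0 with limma-voom, which left 21 of the 29 at an unadjusted p under 0.05, against 3085 of all 13134 tested genes. Leaving out 1 library gave 0 to 11, of 29 or 30 tested. Over all tested genes, the 59 called higher became 39 with library totals, 817 with no filter, 613 with DESeq2, 23 with limma-voom and 0 to 575 without 1 library. The 123 called lower became 43, 906 and 810 under the first 3 of these and 0 to 630 without 1 library. These runs tested 13134 genes each, except 24095 with no filter and 13492 to 13652 without 1 library. Over all 10 nuclear lists, subunits and RNAs without poly(A) tails included, members called higher, 0 by edgeR, numbered 11 with no filter, 14 with DESeq2 and 0 to 10 without 1 library; those called lower, also 0, numbered 6, 5 and 0 to 3. The log2 fold change of the copy Gm28438 ran from -1.84 to 0.85 over the fits without 1 library and was positive without WT-44. The log2 ratio of the share of all 37 genes ran from -1.43 to -0.68. The causes of these shifts were not tested. In the main fit, genes that did not reach about 10 reads in at least 3 libraries went untested. No paired analysis was possible because no library number occurs in both groups.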
